A study of Mus musculus with 12 samples.

Results

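Of the 12 arrays of the series, 5 carried a high signal of choroid plexus genes. They were chosen by measured values: on each array the values of Ttr, Kcnj13, Folr1, Clic6 and Kl were averaged, and every array with a mean above 0.4 was taken, whatever its treatment. They were saline replicate 2, ethanol replicate 1, mephedrone replicate 1 and combination replicates 2 and 3, and the other 7 arrays serve as the comparison. All arrays measured total RNA of anterior striata from male adolescent mice of the outbred stock Swiss CD-1. The animals had gone through 10 days of conditioned place preference, a test of reward in which a compartment is paired with a drug. Each of 4 treatments had 3 arrays: saline, ethanol, mephedrone (a synthetic cathinone stimulant), and mephedrone together with ethanol, here called the combination. Drugs were given 15 minutes before an animal entered the paired compartment, and the labels used here give no dose. Nor do they say whether arrays came from separate animals, and p-values then cover only the spread between these arrays, part of which may be technical. A value here is on the log2 scale and is the distance of an array from the middle of the 12 arrays for that probe set, so 0 is no absence of RNA.

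The choroid plexus is a folded epithelium that hangs into the ventricles of the brain over a stroma with fenestrated vessels. Its cells secrete cerebrospinal fluid by moving ions and water, and release carrier proteins and growth factors into it. Their identity depends on transcription factors such as Otx2. The striatum borders the lateral ventricle, where this tissue lies. In a bulk sample, fewer cells of a type and less RNA per cell cannot be told apart.

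Kcnj13 and Kl belong to the genes that chose these arrays, and Otx2, the lineage factor, was also higher on all 5 of them. The 250 bases before a start site of each are shown from RefSeq (GRCm38.p6), 5′ to 3′ on the strand of the gene, because the 3 genes were high on the same arrays. Capitals mark TAATCC or its reverse complement GGATTA, the core bound by OTX2 and related homeodomain proteins, searched on both strands as the only motif. The window of Kcnj13 is chr1:87394730-87394979 on the minus strand, that of Kl chr5:150952357-150952606 on the plus strand, and that of Otx2, the third of its 4 windows, chr14:48665110-48665359 on the minus strand.
Kcnj13: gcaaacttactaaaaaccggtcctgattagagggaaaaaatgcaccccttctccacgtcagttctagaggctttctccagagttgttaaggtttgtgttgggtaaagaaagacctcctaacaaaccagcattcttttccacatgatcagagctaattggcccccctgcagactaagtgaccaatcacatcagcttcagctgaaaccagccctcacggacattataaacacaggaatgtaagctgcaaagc
Kl: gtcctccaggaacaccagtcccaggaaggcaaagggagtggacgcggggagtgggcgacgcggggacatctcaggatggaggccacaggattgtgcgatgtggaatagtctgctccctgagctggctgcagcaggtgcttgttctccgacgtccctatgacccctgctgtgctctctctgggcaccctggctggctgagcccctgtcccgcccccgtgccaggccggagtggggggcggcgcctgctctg
Otx2: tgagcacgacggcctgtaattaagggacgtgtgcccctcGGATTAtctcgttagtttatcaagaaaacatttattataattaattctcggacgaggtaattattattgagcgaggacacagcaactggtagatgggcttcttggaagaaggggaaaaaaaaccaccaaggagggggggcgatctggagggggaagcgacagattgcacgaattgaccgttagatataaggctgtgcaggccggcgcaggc
The Otx2 window shown held 1 match and was the only 1 of its 4 windows with any, and those of Kcnj13 and Kl held 0. Among the 5 genes of the rule and 30 further choroid plexus genes described below, 26 of 35 had a window that was searched. Of their 39 windows 1 held the motif (2.56%), against 2054 of 32851 windows of the same length over all genes (6.25%). Windows of these genes on 1 chromosome were left out, while the share over all genes kept every chromosome. A match is a stretch of letters, and a window without one says only that these letters are not in it.

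The 5 genes of the rule are given as a description, with no test. Here and below, values of the high arrays stand in the order combination replicate 3, saline replicate 2, ethanol replicate 1, mephedrone replicate 1 and combination replicate 2, which is the order of the mean of the 5 genes. That mean was 2.51, 1.69, 1.35, 1.07 and 1.02. In the other arrays it lay between -0.28 and -0.016, with a median of -0.19. The array just inside the threshold was combination replicate 2, at 1.02, and the one just outside was combination replicate 1, at -0.016. Each of the 5 genes, taken alone, put the same 5 arrays on top.

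Kcnj13, an inward rectifier potassium channel of the choroid plexus epithelium, had values of 4.36, 3.38, 2.77, 2.03 and 2.01, against -0.24 to 0.002 in the other 7. Its level in combination replicate 3 was 21.5-fold the mean of the other arrays, more than for any other of the 5 genes. Ttr encodes transthyretin, the carrier of thyroid hormone in cerebrospinal fluid, and had 2.55, 2.25, 2.00, 1.80 and 1.61. Ttr also varied among the other arrays, with 0.047 in combination replicate 1, -0.047 in saline replicate 1 and -0.081 in saline replicate 3, but -0.71 to -0.49 in the remaining 4. Kl, which encodes klotho, a co-receptor for FGF, had 2.76, 1.42, 1.13, 0.88 and 0.82, against -0.19 to 0.038. Folr1, the receptor through which folate enters the fluid, had 1.66, 0.99, 0.39, 0.35 and 0.31, against -0.20 to 0.045. Clic6, of the chloride intracellular channel family, had 1.22, 0.42, 0.46, 0.29 and 0.34, against -0.60 to 0.056. Clic6 was the only 1 of the 5 that did not keep the order of the mean. Combination replicate 3 was highest in all 5 genes, and its distance above saline replicate 2 was 0.30 for Ttr, 0.67 for Folr1, 0.79 for Clic6, 0.97 for Kcnj13 and 1.34 for Kl.

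**Figure D1:**
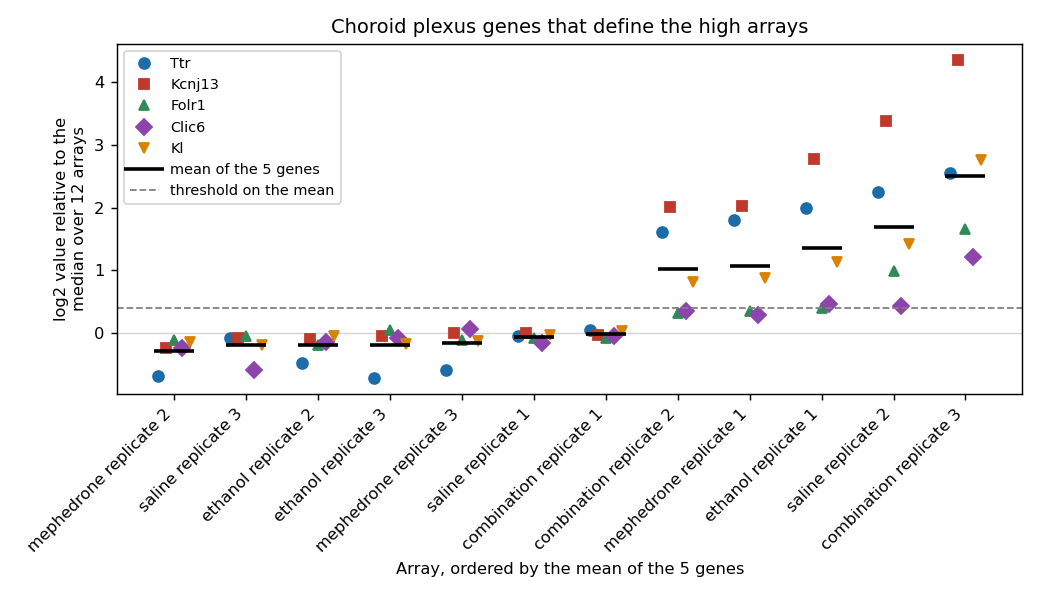
Log2 values of Ttr, Kcnj13, Folr1, Clic6 and Kl on each of the 12 arrays, relative to the median over the arrays, with arrays ordered by the mean of the 5 genes (black bars) and the threshold of 0.4 dashed. The means of the 5 high arrays lie between 1.02 and 2.51, and those of the other 7 between -0.28 and -0.016.

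Every treatment held at least 1 of these arrays: 1 of 3 for saline, 1 of 3 for ethanol, 1 of 3 for mephedrone and 2 of 3 for the combination. The mean of the 5 genes was 0.48 ± 1.06 (SD, n = 3) under saline and 0.32 ± 0.89 under ethanol. It was 0.21 ± 0.75 under mephedrone and 1.17 ± 1.27 under the combination, and the ranges of all 4 overlapped. The SD of an array's values over all probe sets was 0.169 in combination replicate 3, 0.127 in ethanol replicate 1 and 0.102 in saline replicate 2, the widest of the 12. It was 0.0801 in mephedrone replicate 1 and 0.0705 in combination replicate 2, within the range of the other arrays (0.068 to 0.0983).

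The 5 high arrays were compared with the other 7 to see which further genes differed between them. Because the grouping came from genes on the same arrays, a test of another gene asks whether it followed those 5 genes, and is no test of a treatment. With the probe sets of the 5 genes left out, 0 of 28848 passed (0%) in limma with Benjamini-Hochberg adjustment. At an unadjusted p under 0.05 there were 4364, against 1442 expected by chance. Without combination replicate 3, 27 passed (0.0936%), 25 higher (0.0867%) and 2 lower (0.00693%). All 5 high arrays lay above the others in 0.468% of probe sets and below them in 0.86%.

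With the mean of the 5 genes as a continuous measure in place of the 2 groups, 434 passed (1.5%), of which 332 rose with it (1.15%) and 102 fell (0.354%). After quantile normalisation 70 rose and 2 fell, and with treatment group as a covariate 87 rose and 9 fell. The slope is the log2 change of a gene for each log2 unit of that mean. Without combination replicate 3 the count was 45 (0.156%), 37 higher (0.128%) and 8 lower (0.0277%). It was 172 without ethanol replicate 2, 203 without saline replicate 1, 217 without mephedrone replicate 3, 229 without ethanol replicate 3 and 263 without saline replicate 3. It was 789 without mephedrone replicate 2 and 1836 without saline replicate 2. Within the 5 high arrays 40 passed, and within the other 7 arrays 0 did, with 1544 at an unadjusted p under 0.05 in limma.

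In the comparison of the 2 groups, 10 genes were named by the smallest p among rises of at least 0.3 with 1 symbol and no overlap. They were Sfrp1, Cfap44, Rsph4a, Sostdc1, Gpc4, Lbp, Trpm3, Rsph9, Slc13a4 and Slc31a1. None passed, with adjusted p between 0.0967 and 0.14 in limma. Sostdc1, a secreted antagonist of BMP and Wnt signals, had values of 2.54, 1.34, 0.84, 0.66 and 0.87, against -0.20 to 0.00013 in the other arrays. The group means differed by 1.32 (SE 0.25, 2.5-fold). Sostdc1 rose with the mean of the 5 genes by 0.85 per unit (SE 0.0551, adjusted p = 1.15e-05). Lbp, which binds bacterial lipopolysaccharide, had 2.21, 1.15, 0.65, 0.72 and 0.60, against -0.30 to 0.0055. Its groups differed by 1.19 (SE 0.225), and its slope was 0.76 (SE 0.0525, adjusted p = 1.25e-05). In both genes all 5 high arrays lay above the other 7, with combination replicate 3 farthest.

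Slc13a4, a sodium-sulphate cotransporter, had 1.43, 1.05, 0.67, 0.26 and 0.42, against -0.043 to 0.0011. Trpm3, a cation channel, had 1.27, 0.58, 0.46, 0.39 and 0.22, against -0.29 to 0.049, and Slc31a1, the high-affinity copper importer, had 0.80, 0.17, 0.30, 0.35 and 0.21, against -0.22 to 0.021. Their groups differed by 0.79 (SE 0.155), 0.72 (SE 0.139) and 0.45 (SE 0.0908), with no overlap. With 1 value per gene and without combination replicate 3, these 3 genes, Sostdc1 and Lbp passed the test of the 2 groups. The differences were then 0.62 for Slc13a4, 0.55 for Trpm3, 0.34 for Slc31a1, 1.00 for Sostdc1 and 0.90 for Lbp, with adjusted p between 0.00102 and 0.0428.

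The remaining 5 differed less. Sfrp1, a secreted modulator of Wnt signals, had 0.45, 0.37, 0.30, 0.18 and 0.17, against -0.20 to 0.018, a difference of 0.39 (SE 0.0572) with the smallest adjusted p of the comparison. Cfap44, a protein of the ciliary axoneme, had 0.48, 0.13, 0.17, 0.23 and 0.23, against -0.16 to 0.03. The radial spoke proteins Rsph4a and Rsph9, which belong to the same structure, had 0.39, 0.13, 0.35, 0.028 and 0.20, and 0.23, 0.093, 0.20, 0.069 and 0.19. In Cfap44, Rsph4a and Rsph9 the 5 arrays did not keep the order of the mean of the 5 genes, although combination replicate 3 was highest. Nor did they in Sostdc1, Lbp, Slc13a4, Slc31a1 and Gpc4, while Trpm3 and Sfrp1 kept it. Gpc4, a cell surface proteoglycan, differed by 0.30 (SE 0.0577). In the other direction, no probe set with 1 symbol and without overlap differed by 0.3 or more, and the farthest was 1 of the 19 of Trdn, at -0.29.

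Beyond the 5 genes, 125 measured genes stood in 6 lists of choroid plexus functions. All 5 high arrays lay above the others in 30 of them (24%) and below in 2, against 112 (0.562%) and 166 (0.833%) of all 19933 genes. The median difference of the 125 was 0.14, against -0.0040 over all genes. A shift of this size was not particular to them: it was 0.33 in the list of cortical excitatory neuron genes and 0.13 in that of oligodendrocyte genes, where 11 of 11 lay above 0, both with no member without overlap. Without combination replicate 3 the cortical median was 0.21 and the oligodendrocyte median 0.045, against -0.0056 to 0.13 in the 6 choroid lists. With 1 value per gene, 60 of the 125 rose with the mean of the 5 genes and none fell, against 574 of all genes (2.88%), 439 higher (2.2%) and 135 lower (0.677%). Without combination replicate 3, 24 rose and none fell, against 30 (0.151%) and 5 (0.0251%) of all. The lists hold markers of the tissue whose genes chose the arrays, so their direction is no independent evidence. Gene slopes below are from the fit with 1 value per gene, and most genes named from here on were picked after their values were seen.

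Among secreted and matrix proteins 10 of 21 genes rose, and 8 did so without combination replicate 3. Ecrg4, which encodes a secreted peptide precursor of the epithelium, had 1.83, 0.64, 0.70, 0.34 and 0.27, against -0.19 to 0.013. Igf2, a growth factor that the tissue supplies to the fluid, had 1.30, 0.73, 0.41, 0.29 and 0.25, against -0.28 to 0.089. Its binding protein Igfbp2 had 1.72, 0.87, 0.49, 0.21 and 0.17, against -0.24 to 0.024, and F5, coagulation factor V, had 1.76, 0.80, 0.71, 0.35 and 0.20, against -0.12 to 0.012. In these 4 genes the high arrays were separate from the rest, and combination replicate 3 was highest by a wide step. Their slopes were 0.48 to 0.57 per unit over all arrays and 0.40 to 0.41 without combination replicate 3, each past the threshold. Col8a1, a basement membrane collagen, and Sulf1, an extracellular sulphatase, rose by 0.36 and 0.43 per unit.

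Ion and water transport, the machinery of fluid secretion, had 14 of 20 genes that rose, but 3 without combination replicate 3: Slc4a5, Trpm3 and Slc13a4. Slc4a5, a sodium-bicarbonate cotransporter, had 1.68, 0.95, 0.52, 0.43 and 0.40, against -0.14 to 0.018, with slopes of 0.56 over all arrays and 0.46 without that array. Aqp1, the apical water channel, was 0.85 in combination replicate 3 and -0.013 to 0.19 in the other 4 high arrays, part of which overlapped the remaining 7 (-0.13 to 0.074). Slc12a2, the sodium-potassium-chloride cotransporter, was 0.75 there and 0.042 to 0.11 in the other 4, above the remaining 7 (-0.15 to 0.02). Car14, a carbonic anhydrase, was 0.92 there and -0.019 to 0.16 in the other 4. The slopes of Aqp1, Slc12a2 and Car14 passed over all arrays (0.21, 0.21 and 0.25) and not without combination replicate 3 (0.078, 0.11 and 0.11, adjusted p = 0.322, 0.0877 and 0.278).

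Of 24 carriers of solutes and metals 11 rose, and 1 without combination replicate 3, Slc2a12. Slc2a12, a glucose transporter, had 2.00, 0.64, 0.42, 0.30 and 0.21, against -0.32 to 0.03. Stra6, the retinol transporter, rose by 0.18 per unit with values of 0.55, 0.32, -0.028, 0.12 and 0.061, but ethanol replicate 1 and combination replicate 2 lay within the other arrays. Among receptors, enzymes and other epithelial genes 15 of 25 rose, and 6 without combination replicate 3. They include Calml4, of the calmodulin family, with 1.06, 0.70, 0.27, 0.13 and 0.17, and Gpx8, a peroxidase, with 1.06, 0.43, 0.44, 0.29 and 0.037. Among junction and epithelial genes 7 of 19 rose, and 4 without that array. The tight junction protein Cldn1 had 1.28, 0.51, 0.34, 0.29 and 0.099, and Cldn2, which forms cation pores, had 1.22, 0.51, 0.29, 0.065 and 0.11, both above all 7 other arrays.

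Of 16 transcription factors 3 rose (Otx2, Gmnc and Msx1), and the list's median difference was -9.4e-05. Otx2 had 1.54, 0.52, 0.59, 0.40 and 0.34, against -0.19 to 0.0046, and rose by 0.50 per unit (SE 0.0449). Gmnc, which starts the programme of multiciliated cells, had 0.99, 0.29, 0.22, 0.24 and 0.11, against -0.05 to 0.0064, and rose by 0.28. Mcidas acts in the same programme, and here the 5 arrays lay below the rest, at -0.046, -0.12, -0.30, -0.17 and -0.18, against -0.0034 to 0.17. The difference of Mcidas was -0.21 (adjusted p = 0.149 in limma), and -0.24 without combination replicate 3, where it passed (adjusted p = 0.0428). Lmx1b, a homeodomain factor, was also lower without overlap, at -0.02, -0.026, -0.14, -0.14 and -0.015, and did not pass (adjusted p = 0.236).

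**Figure D2:**
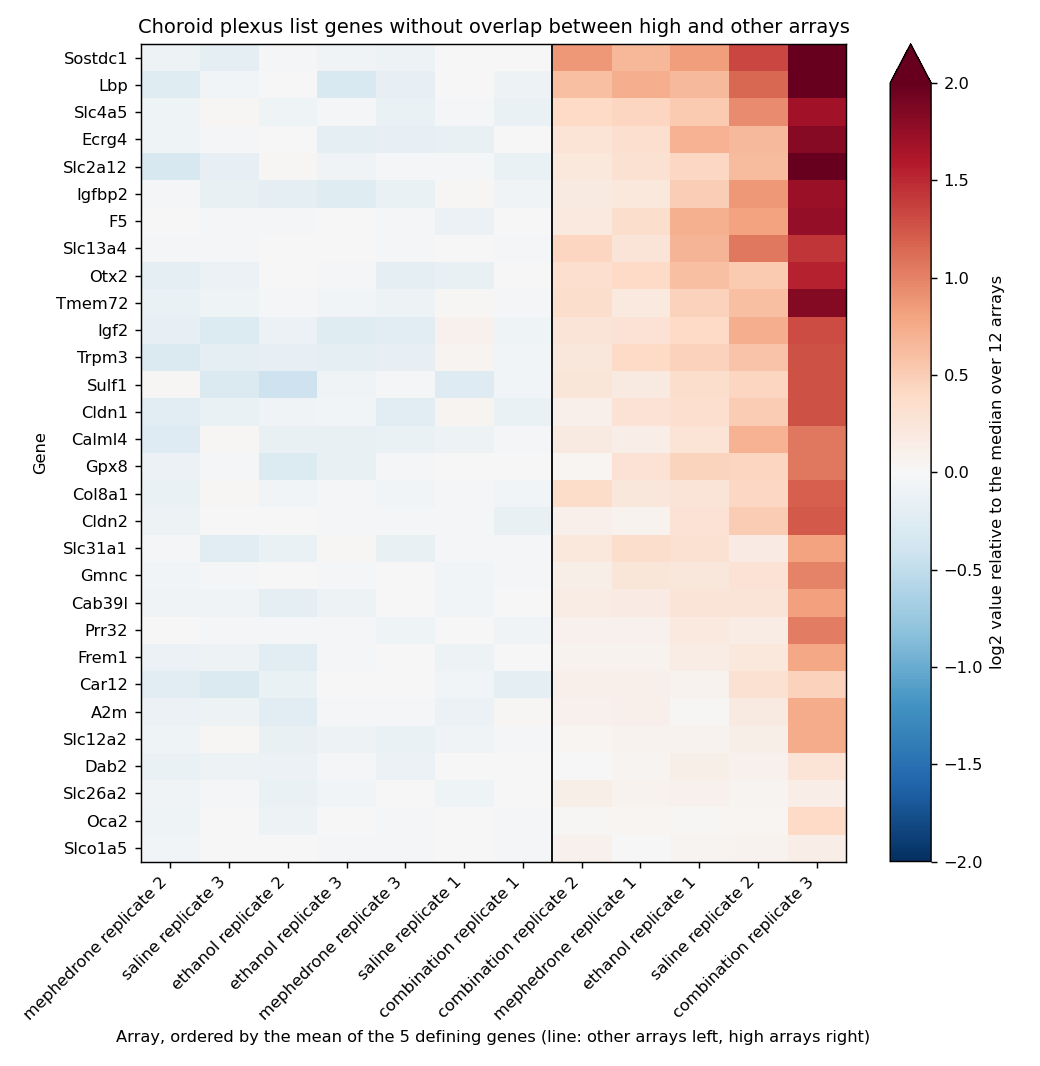
Log2 values, relative to the median over the 12 arrays, of the 30 choroid plexus list genes whose 5 high arrays (right of the line) all lie above the other 7 (left of it), with the colour scale ending at 2. Combination replicate 3, in the last column, is highest in all 30.

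Over those 30 genes combination replicate 3 was highest in each, and saline replicate 2 was second in 22. Combination replicate 2 was lowest of the 5 in 15 and mephedrone replicate 1 in 10. The median height above the mean of the other 7 arrays was 1.26, 0.57, 0.42, 0.28 and 0.26. These genes were kept because their high arrays lie above the others, so the heights only describe them. Over every measured member of the ion and water transport list, with no such choice, the list means were 0.63, 0.25, 0.13, 0.076 and 0.099, against -0.076 to -0.04. Means of the secreted, receptor and junction lists also did not overlap. Those of solute and metal carriers did, at 0.0098 to 0.34 in the high arrays and -0.083 to 0.015 in the others. So did those of the transcription factors, at 0.014 to 0.20 and -0.055 to 0.094.

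Lists of other cell types around the ventricle differed from each other. Of 30 ependymal and cilia genes 4 lay above the others without overlap (Tmem212, Dnah11, Efhb and Cfap52), against 0.562% of all genes. Over all arrays 4 rose with the mean of the 5 choroid genes, against 2.2% of all genes, but none without combination replicate 3. Cfap52, a ciliary protein, had 0.38, 0.31, 0.072, 0.026 and 0.18, against -0.14 to 0.00021. The list means were 0.065, 0.068, 0.0099, 0.037 and 0.065, against -0.052 to 0.011, so ethanol replicate 1 lay within the other arrays. Of 18 meningeal and perivascular fibroblast genes 5 rose (Pcolce, Ogn, Islr, Mgp and Fmod), against the same 2.2%. Pcolce, an enhancer of procollagen processing, had 0.80, 0.61, 0.33, 0.058 and 0.17, against -0.11 to 0.0054, and was the 1 that passed without combination replicate 3. The fibroblast list means were 0.12, 0.18, 0.057, 0.0086 and 0.010, against -0.034 to -0.019, so all 5 high arrays lay above the others. Of the 18 genes, 2 lay above the others without overlap, against 0.562% of all genes. In the lists of fenestrated endothelium, barrier endothelium, border macrophages and microglia no gene lay without overlap, which is near the background for lists of this size (0.562% of all genes higher and 0.833% lower). The means of those 4 lists were -0.083 to 0.17 in the high arrays and -0.089 to 0.091 in the others.

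Neurons of the striatum and of nearby regions differed among the 5 arrays. Striatal projection neuron genes had list means of -0.33, -0.053, -0.19, 0.028 and 0.0062, against -0.014 to 0.086. Of 14 genes 5 fell with the mean of the choroid genes (Drd2, Penk, Gpr6, Foxp1 and Rarb, slopes of -0.13 to -0.062), against 0.677% of all genes, and none without combination replicate 3. Drd2, the dopamine receptor of the indirect pathway, was -0.42, 0.038, -0.20, -0.029 and -0.013, against -0.031 to 0.17. Cortical excitatory neuron genes had list means of 0.80, 0.37, 0.17, -0.059 and 0.019. The other arrays ranged from -0.51 in ethanol replicate 2 to 0.37 in mephedrone replicate 2, so this signal did not divide the arrays as the choroid signal did. Slc17a7, the vesicular glutamate transporter of cortical neurons, was 1.20, 0.82, 0.46, -0.10 and 0.072, against -1.14 to 0.61, and did not pass, although 2 of the 11 genes of that list rose with the mean of the choroid genes (Fezf2 and Nptx1; 2.2% of all genes did), neither without combination replicate 3 (adjusted p of Slc17a7 = 0.275 for the groups and 0.0719 for the slope). Oligodendrocyte genes had list means of 0.50, 0.054, -0.019, 0.011 and -0.032, against -0.15 to 0.15. The part of these signals in the differences above was not tested.

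**Figure D3:**
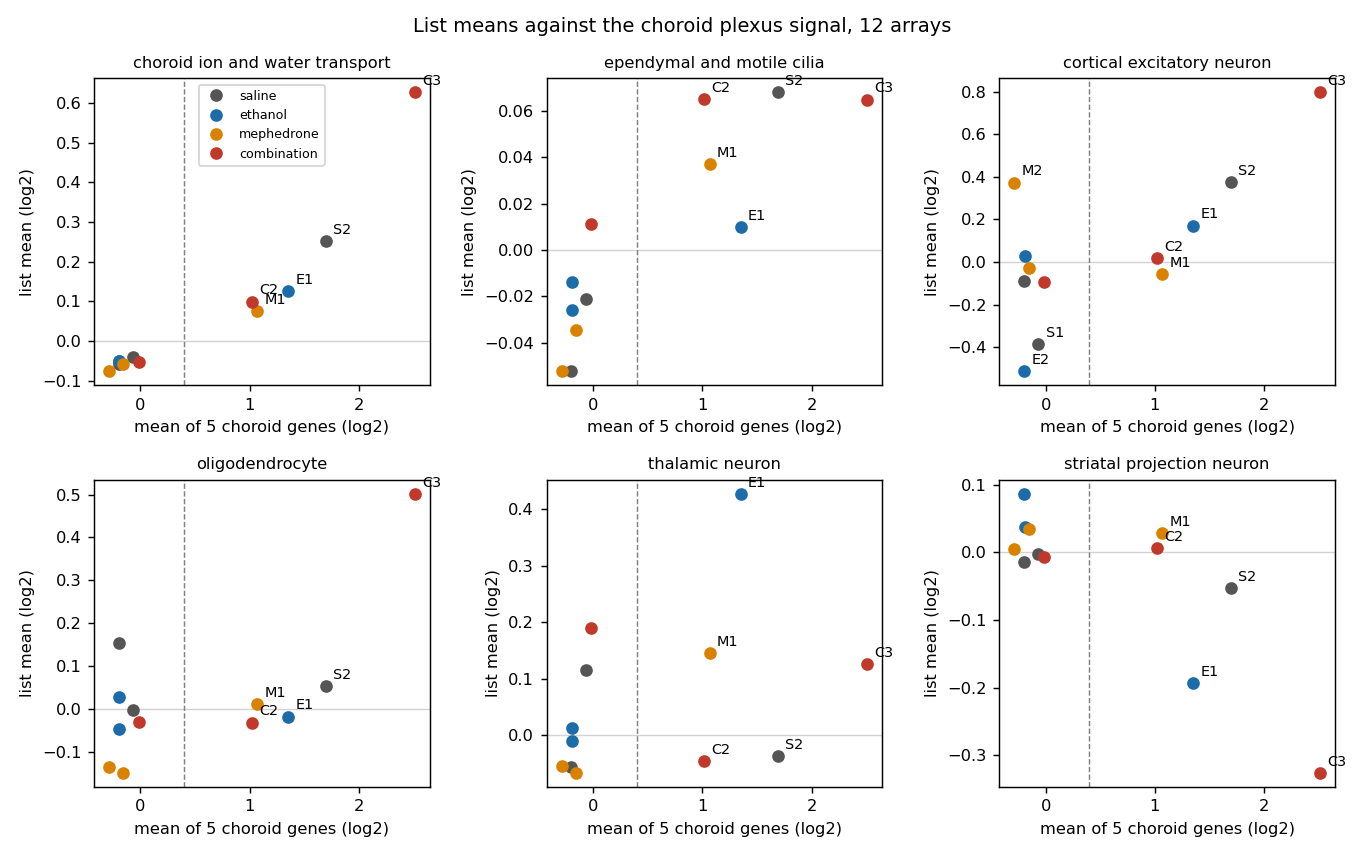
Mean log2 value of 6 gene lists on each array against the mean of the 5 choroid plexus genes, with treatments in colour, the threshold of 0.4 dashed, and some arrays marked by treatment (S saline, E ethanol, M mephedrone, C combination) and replicate. Oligodendrocyte genes are highest in combination replicate 3 (0.50) and thalamic genes in ethanol replicate 1 (0.43).

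Another set of genes was high on ethanol replicate 1 and mephedrone replicate 1 and not on the other 3. Zic1, a zinc finger factor of the dorsal midline, was -0.24, -0.087, 1.87, 1.46 and -0.03, against -0.18 to 0.57, with ethanol replicate 2 the highest of the other arrays. Its relative Zic2 was 0.078, 0.22, 1.44, 1.15 and -0.018, against -0.33 to 0.44. Prkcd, a protein kinase C isoform enriched in the thalamus, was 0.059, 0.065, 1.02, 1.09 and -0.053, against -0.23 to 0.26. In these genes the pair of arrays stood about 1 unit or more above the rest of the 5. Rasd1, a Ras family GTPase induced by glucocorticoid, was 0.21, -0.088, 0.99, 1.00 and 0.085, and Trpc4, a cation channel prominent in the lateral septum, was 0.24, -0.11, 1.08, 0.78 and -0.00055. Glp1r, the receptor of glucagon-like peptide 1, was -0.49, -0.28, 1.35, 0.69 and -0.044, so combination replicate 3 was low where this pair was high. None of the 6 passed in limma (adjusted p between 0.239 and 0.716 for the 2 groups). The thalamic list mean was 0.43 in ethanol replicate 1 and 0.15 in mephedrone replicate 1, against 0.13 in combination replicate 3 and up to 0.19 in the other arrays. The septal and ventral forebrain list mean was 0.24 and 0.088 in this pair, against up to 0.14. In both lists mephedrone replicate 1 thus lay within the other arrays. It did not in the list of the subventricular neurogenic zone, with means of 0.11 in ethanol replicate 1 and 0.15 in mephedrone replicate 1. Combination replicate 3, saline replicate 2 and combination replicate 2 had -0.027, 0.022 and 0.041 there, and the other arrays up to 0.019.

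**Figure D4:**
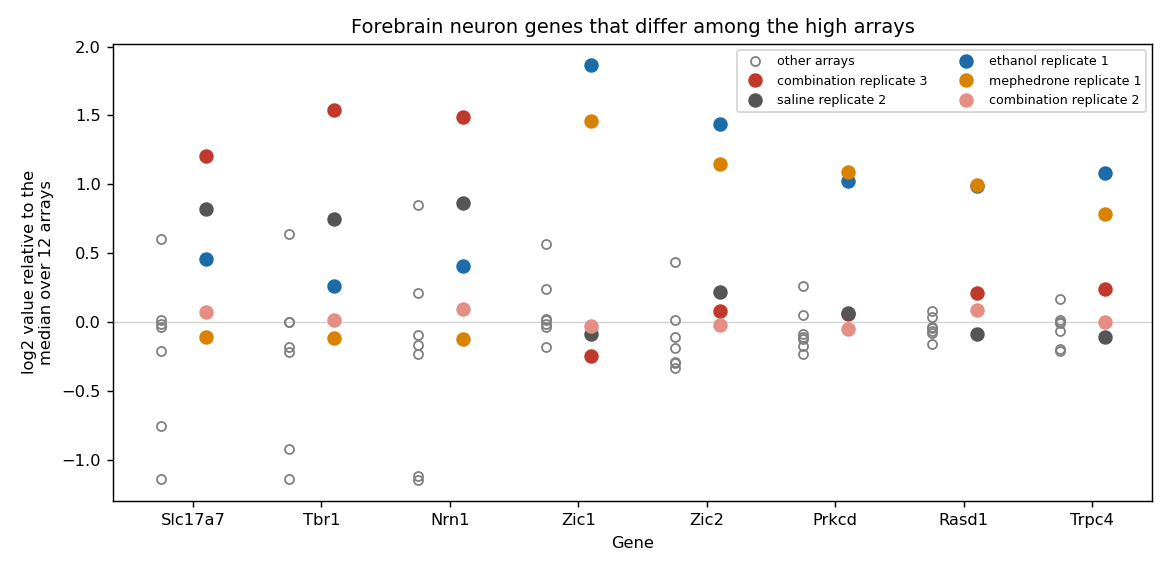
Log2 values of 8 genes relative to the median over the 12 arrays, with the 7 other arrays as open circles and the 5 high arrays as filled circles in the colours of the key. Where values coincide, points cover each other. Zic1 and Zic2 belong to the list of choroid transcription factors and to no neuron list. Slc17a7, Tbr1 and Nrn1 are highest in combination replicate 3, and Zic1, Zic2, Prkcd, Rasd1 and Trpc4 in ethanol replicate 1 or mephedrone replicate 1.

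Some genes stood far out on single arrays and are given without a test, since each distance rests on 1 array. They were ranked by their distance from the nearest of the other 7 arrays, among probe sets with 1 symbol outside the choroid lists. In ethanol replicate 1, Ndst4, a heparan sulphate sulphotransferase, was 1.78 and Nmbr, the neuromedin B receptor, 1.20, while the other 4 high arrays reached at most 0.19 in either. In combination replicate 3 the first above by this distance were 1 of the 3 probe sets of Baiap2l1, an actin regulator (1.78), and Pqlc3 (1.27). Pqlc3 was not particular to that array: the other 4 high arrays had 0.28, 0.022, 0.017 and 0.085, all above the other 7 (at most 0.0051). The first below by it were Pbx3, a homeodomain factor (-1.07), Myo3b, a myosin (-1.03), and Calb1, the calcium buffer calbindin (-1.05). In combination replicate 2 Tph1, a tryptophan hydroxylase, was 0.70, against -0.051 to 0.037 in the other 7. In saline replicate 2 Agt, angiotensinogen, was -1.24 and Tac2, a tachykinin, -1.26, both below all other 7. Counts over all probe sets follow, with those of the 5 genes of the rule and the choroid lists included. Since those 5 genes chose the high arrays, part of the counts above in these arrays was fixed by the rule. Probe sets more than 1 unit above the mean of the other arrays numbered 71 in combination replicate 3, 23 in ethanol replicate 1, 13 in saline replicate 2, 6 in mephedrone replicate 1 and 2 in combination replicate 2. Among the other arrays, each against the remaining 6, they numbered 1 to 8, with 8 in saline replicate 3. More than 1 unit below were 15 in combination replicate 3, 7 in saline replicate 2, 1 in ethanol replicate 1 and 0 in the last 2, against 22 in combination replicate 1, which is not a high array.

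Genes of the circadian clock (18 measured, median difference 0.0036) and immediate early genes, which neurons induce on firing (19 measured, median -0.15), had no member without overlap, again near the background (0.562% and 0.833%). The immediate early list means were -0.13, -0.072, 0.28, -0.11 and -0.063, with ethanol replicate 1 alone high among the 5. In the other 7 arrays they ranged from -0.13 in combination replicate 1 to 0.30 in saline replicate 1, the highest of the 12, and both other ethanol arrays had 0.25.

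The study's own comparisons were then fitted with the mean of the 5 genes as a covariate, to see how their calls stand beside the choroid signal. These fits and their shares cover all 28853 probe sets, those of the 5 genes included. None of the 5 was called, but the covariate is their own mean, so the fits with it are no test of them. Treatment groups come from the labels and not from the values. For the mephedrone main effect (6 arrays with the drug against 6 without) 56 probe sets passed in limma (0.194%), 31 higher and 25 lower, against 68 without the covariate (0.236%), with 49 in both. Ciart, a repressor of the circadian clock, rose by 0.76 with it (SE 0.0612, adjusted p = 0.00402) and by 0.75 without it. Arntl, which encodes the clock activator BMAL1, changed by -0.45 with it (SE 0.0469, adjusted p = 0.0057) and -0.46 without it. The 3 probe sets of Rbm3, a cold-inducible RNA-binding protein, rose by 0.37, 0.40 and 0.37 with it and 0.39, 0.42 and 0.39 without it, and may read near-identical copies.

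With the covariate 7 probe sets were gained, 5 of them with a symbol. Gpx6, a glutathione peroxidase, rose by 0.51 (SE 0.0619, adjusted p = 0.0163), against 0.46 (SE 0.103, adjusted p = 0.0962) without it. Egr3, an activity-induced transcription factor, changed by -0.25 (adjusted p = 0.0474), against -0.27 (adjusted p = 0.0605). Ago4, an Argonaute protein, changed by -0.31, and Herc4 and Cfap69 by 0.18 and 0.19. Over 16 alternatives the call held in 11 for Gpx6, 6 for Ago4, 4 for Herc4, 2 for Cfap69 and 1 for Egr3, whose adjusted p reached 0.163. The call was lost for 19, among them Sdhaf4 (0.34 with and 0.35 without it) and Sucla2 (0.23 and 0.23), both of mitochondrial metabolism, and Cacng2 (-0.25 and -0.25), which traffics AMPA receptors. The count was 9 without combination replicate 1, 15 to 22 without any 1 of the mephedrone arrays, ethanol replicate 2 or 3 or saline replicate 2, and 117 without saline replicate 3.

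**Figure D5:**
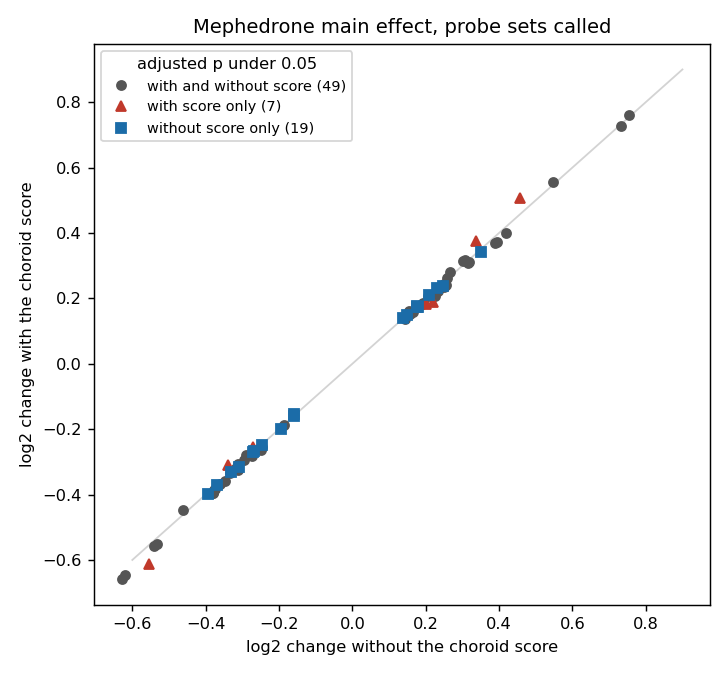
Log2 change of the mephedrone main effect with the mean of the 5 choroid genes as a covariate (vertical) against that without it (horizontal), for each probe set called in either fit; the grey line is equal change. The 49 called in both, the 7 called only with it and the 19 called only without it lie near the line.

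The combination held 2 of the 5 arrays. Against saline 9 probe sets passed with the covariate (0.0312%) and 1 without it (0.00347%), a Ciart probe set that rose by 0.91 and 0.89. Those gained were the 3 of Rbm3, at 0.47, 0.44 and 0.42 with it and 0.52, 0.49 and 0.46 without it, 1 of Cmc1, a mitochondrial assembly factor, at 0.36 and 0.35, and 4 of A530040E14Rik, a transcript with no gene name, all lower (-0.45 to -0.48 with it and -0.42 to -0.44 without it). This count was 0 without any 1 of ethanol replicate 3, mephedrone replicates 2 and 3 and combination replicates 1 and 2. It was 1 without saline replicate 3, 2 without saline replicate 1 or combination replicate 3, and 3 without saline replicate 2.

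Against ethanol 8 passed with the covariate (0.0277%) and 10 without it (0.0347%), with 6 in both: Arntl, a Ciart probe set, the 3 of Rbm3 and 1 with no symbol. The other Ciart probe set, C4b, a complement component, Lsm4 and Mpp3 lost their calls with it, each at an adjusted p of 0.0739 in limma. The change of C4b was 0.36 with it and 0.36 without it. This count was 0 without any 1 of ethanol replicate 2, mephedrone replicates 2 and 3 and the combination arrays. It was 1 without saline replicate 2 or 3, 2 without ethanol replicate 3 or mephedrone replicate 1, 3 without ethanol replicate 1, and 21 without saline replicate 1. Both comparisons share arrays with each other and with the mephedrone main effect.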

How the data were processed

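Arrays of 12 samples of total RNA, labelled with biotin after amplification per the labels, were analysed from 1 table. The deposited values are on a log2 scale, made by the authors with RMA on build mm8 (per the submitters' processing notes) and GeneSpring GX 7.3.1 (per the series design text). The centring on each probe set's median was read from the values, where that median is 0 within 7.02e-07. The level before centring is not used here, so no filter on signal was possible. The number of arrays limits the precision.

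Of 28853 probe sets, 21789 carried 1 symbol in the platform annotation, 1621 several and 5443 were not listed, and the single symbols named 19938 genes, averaged over probe sets where a gene is counted. Of the 26 gene lists, members that matched no single symbol were not analysed here. Group differences, slopes and treatment contrasts were fitted by lmFit and eBayes (two-sided) of limma 3.58.1, run in R 4.3.3, with Benjamini-Hochberg adjustment at 0.05. The group fit had 10 residual and 3.03 prior degrees of freedom. It was tested on simulated data. The members and lists were chosen with earlier results of these data known.

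For the high arrays the rule named, among called probe sets with a single symbol and groups that did not overlap, up to 20 rises and 12 falls, filled to 10 in a direction by the smallest p with a change of at least 0.3. Per list it named up to 6 members that passed or the 2 of smallest p, per array 8 above and 5 below the other arrays, and per treatment contrast up to 10 a direction. Errors are standard errors of the fit unless given as SD. Alternatives were treatment, replicate number, arrays left out, normalisation, weights, filter and values per gene; those on the slope were chosen after seeing the data.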

Additional observations from a re-analysis of the deposited data

Results flagged for a closer look

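Samples far from the rest of their group were sought among the 5 high and the 7 other arrays with Dixon's test, in 70 groups of values that leave out the 5 genes of the rule, of which 4 were marked (5.71%); chance marks about 1 in 20. Among the high arrays, combination replicate 3 stood apart in Slc31a1 (0.802, next 0.347) and the oligodendrocyte list mean (0.501, next 0.0536). Ethanol replicate 1 stood apart in the immediate early list mean (0.282, next -0.0633). Among the other arrays, ethanol replicate 2 was high in the list mean of choroid transcription factors (0.0942, next -0.00274), a list that holds Zic1 and Zic2.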

How the results depend on the processing

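Limits are given first. The 5 arrays were grouped by expression, 1 of them lies far above the rest, and signals of other tissues differ among them, so a slope over the arrays may follow any of these; their parts were not tested. For high against other arrays the count of 0 became 1 with a replicate block, 10 without both arrays of widest spread, 38 with quantile normalisation, 29 without all combination arrays, 434 with the mean of the 5 genes in place of groups and 1 without the 30% of probe sets of smallest SD. It stayed 0 with treatment group as covariate, array quality weights and 1 value per symbol, and ranged from 0 to 27 with 1 array left out. The cause of these changes was not tested. The 10 genes named for this comparison kept their direction in every alternative run on them. They were chosen for groups that do not overlap, so leaving arrays out or weighting them could not have reversed the direction.

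For the slope on the mean of the 5 genes, the count of 434 became 96 with treatment group as covariate, 72 with quantile normalisation, 28 without both arrays of widest spread, 40 in high arrays only and 0 in other arrays only. It was 574 with a replicate block or with 1 value per symbol, and 45 to 1836 with 1 array left out.

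With the covariate, the mephedrone main effect (56) had 22 calls with a replicate block, 35 with quantile normalisation and 9 to 117 with 1 array left out. Against ethanol (8) the combination had 13 with array groups in place of that mean, 0 with a replicate block or quantile normalisation, and 0 to 21 with 1 array left out. Against saline (9) it had 1 with no covariate, 0 with a replicate block or quantile normalisation, and 0 to 10 with 1 array left out. Replicate numbers did not pair the arrays: 2 of 6 pairs for each number correlated over 0.1, and 4 of 12 arrays correlated best with their own number.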
